A study of Mus musculus with 40 samples.

Results

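The genes described here are the Groucho/TLE co-repressors Tle1, Tle2, Tle3, Tle4 and Tle6, together with Hdac1, Ncor1, Daxx and Paxip1, which act with Groucho proteins or with PAX5. They were matched to the array by exact gene symbol in the platform annotation. This gave 13 of the 45037 probe sets tested, for 8 of the 9 genes. Ncor1 had no probe set under that symbol and is not analysed here. Tle3 and Tle4 had 3 probe sets each, Paxip1 had 2 and the other genes had 1. Of the 13 probe sets, 12 lay above the array median on all 40 arrays, with median log2 signals from 5.49 to 10.89. The exception was Tle2, which lay above the median on 1 of 40 arrays.

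RNA came from J558LuM, a mouse plasmacytoma line, in 6 groups of separate transductions. The cells received an empty vector (MIR), wild-type PAX5 (PAX5-WT), 1 of 2 octapeptide variants (PAX5-G183S and PAX5-G183V), a paired-domain variant (PAX5-P80R) or PAX5-Δ2-6, which the labels do not describe further. The empty vector, wild type and both octapeptide variants each had 7 arrays, split over plates 1 and 2; PAX5-P80R and PAX5-Δ2-6 had 6 each, on plate 2 alone. RNA was isolated in 2 batches that both held every group. Transduction numbers 34 to 44 and 58 to 66 held MIR, PAX5-WT and PAX5-G183S (except PAX5-G183S replicate 4, number 45), and 1 to 9 and 45 to 57 held the other groups. Any comparison between these 2 sets of constructs runs across transduction series, and construct and series cannot be fully told apart in it. All groups share 1 cell line, so each p-value reflects the spread among repeated transductions of it.

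PAX5 is the transcription factor that commits cells to the B lineage, and it can activate or repress its targets. Its octapeptide is a short motif that binds the WD-repeat domain of Groucho proteins, which then recruit histone deacetylases such as HDAC1 to silence nearby genes. NCOR1 is the scaffold of another deacetylase complex, and DAXX is a histone chaperone that binds PAX5. PAXIP1 (PTIP) links PAX proteins to histone methyltransferases of the KMT2 family. Amino acid changes in the octapeptide can alter Groucho binding, while the arrays measure only the transcripts of these partners.

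Tle1 and Tle6 were the members that moved most clearly, in opposite directions, and their promoters are shown for that reason. The RefSeq windows below cover 250 bases upstream of an annotated start on GRCm38.p6, written 5′ to 3′ on the gene's strand, which is the minus strand for both genes. They lie at chr4:72200894-72201143 for Tle1 and at chr10:81600901-81601150 and chr10:81597368-81597617 for the 2 starts of Tle6. Capitals mark GGGCGG or its reverse complement CCGCCC, the GC box.
Tle1 promoter: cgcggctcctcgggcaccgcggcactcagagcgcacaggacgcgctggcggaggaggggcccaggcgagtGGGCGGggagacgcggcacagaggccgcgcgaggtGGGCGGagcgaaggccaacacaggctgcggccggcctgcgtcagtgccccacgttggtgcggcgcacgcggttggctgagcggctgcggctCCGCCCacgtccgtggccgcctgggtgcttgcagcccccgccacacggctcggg
Tle6 promoter, first start: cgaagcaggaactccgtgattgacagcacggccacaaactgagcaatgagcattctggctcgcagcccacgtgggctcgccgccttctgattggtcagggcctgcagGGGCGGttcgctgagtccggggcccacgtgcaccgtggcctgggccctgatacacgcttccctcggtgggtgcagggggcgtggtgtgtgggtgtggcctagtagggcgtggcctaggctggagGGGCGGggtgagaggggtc
Tle6 promoter, second start: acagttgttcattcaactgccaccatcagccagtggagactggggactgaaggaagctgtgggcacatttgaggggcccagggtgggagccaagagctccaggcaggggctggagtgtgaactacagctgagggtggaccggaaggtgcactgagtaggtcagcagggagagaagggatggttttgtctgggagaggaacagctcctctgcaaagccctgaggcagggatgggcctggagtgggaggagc
The Tle1 window held 3 GC boxes and a GC content of 77.2%, against a median of 52.4% over 32851 mouse windows of the same length. The Tle6 windows had GC contents of 67.2% and 59.6%, with 2 and 0 GC boxes. A GC box occurred in 32.7% of all windows. The windows were also searched on both strands for GCGTGAC and the wider GCNTGAC, which contains it, as letters found within the PAX5 recognition sequence. Neither occurred in any of 11 windows of 7 members (Hdac1 and Ncor1 had none in the table), and they occurred in 1.8% and 8.8% of all windows. The match or lack of a match describes these letters in these windows only.

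Across the 6 groups a moderated F test in limma, with plate and isolation batch as terms, called 3 of 13 member probe sets at an adjusted p under 0.05. The share over all probe sets was 8.96%. Tle1 had an adjusted p of 6.1e-05, Tle6 of 0.000431 and the brightest Tle4 probe set of 0.0341. The other probe sets of Tle4 and those of Tle2, Tle3, Hdac1, Daxx and Paxip1 were not called, with adjusted p from 0.0864 to 0.965. Of the 8 measured genes, 3 (37.5%) were called in at least 1 comparison with MIR by their brightest probe set, against 11.7% of all 17097 genes. They were Tle1, Tle3 and Tle6, and nothing particular to the members is read from so few genes.

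**Figure D1:**
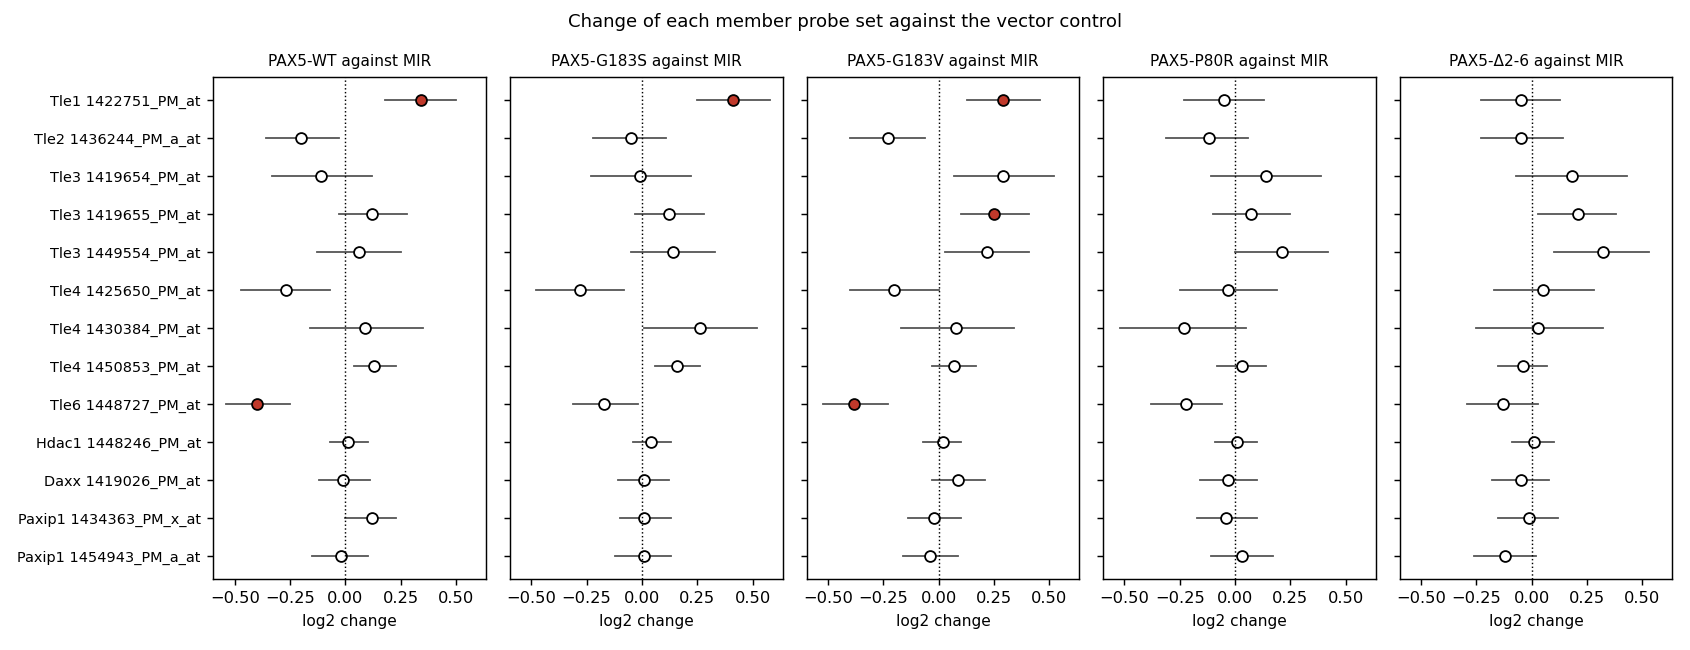
Log2 change of each of the 13 member probe sets against MIR (x axis), 1 panel per construct, with horizontal bars for 95% confidence intervals and filled points for adjusted p under 0.05. Filled points appear for Tle1 and Tle6 with PAX5-WT, Tle1 with PAX5-G183S, and Tle1, Tle3 and Tle6 with PAX5-G183V, and none appears with PAX5-P80R or PAX5-Δ2-6.

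Tle1, a full-length Groucho co-repressor with the WD-repeat domain that binds octapeptides, was higher with wild-type PAX5 and with both octapeptide variants than with the empty vector. Log2 signals in MIR ran from 7.37 to 7.82 with a median of 7.53. In PAX5-WT they ran from 7.71 to 8.12 with a median of 7.88, and in PAX5-G183S from 7.79 to 8.15 with a median of 8.01. The lowest arrays of both groups overlapped the highest MIR array, while 5 of 7 PAX5-WT and 6 of 7 PAX5-G183S arrays lay above every MIR array. PAX5-G183V arrays lay between 7.62 and 8.05 (median 7.85), with 4 of 7 above every MIR array. PAX5-P80R arrays ran from 7.34 to 7.88 (median 7.56) and PAX5-Δ2-6 arrays from 7.36 to 7.79 (median 7.59). Both of these groups covered nearly the same range as MIR.

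With PAX5-WT the Tle1 signal was 1.27-fold that in MIR, a rise of 0.34 ± 0.08 on the log2 scale (SE, 7 arrays against 7; adjusted p in limma = 0.00678). With PAX5-G183S it rose by 0.41 ± 0.08 (adjusted p = 0.000801), or 1.33-fold, and with PAX5-G183V by 0.29 ± 0.08 (adjusted p = 0.0207), or 1.23-fold. The PAX5-G183V call was lost without PAX5-G183V replicate 4 (0.27, adjusted p = 0.0506) or MIR replicate 4 (0.26, adjusted p = 0.0565). With 4 transduction series as terms this change was 0.20 ± 0.19 (adjusted p = 0.935), and with the series as a random block it was 0.29 ± 0.09 (adjusted p = 0.0643). The call was also lost with 3 series as terms (0.25, adjusted p = 0.0915) and with quantile normalization applied again (0.27, adjusted p = 0.0570), and in all with 9 of 15 alternative settings. The differences with PAX5-P80R and PAX5-Δ2-6 were -0.05 ± 0.09 each (n = 6 and 7; adjusted p = 0.877 and 0.943), with 95% confidence intervals from -0.23 to 0.13. In bulk RNA a change in every cell cannot be told apart from a larger change in some of them. The intervals for PAX5-P80R and PAX5-Δ2-6 exclude a rise of the size seen with PAX5-WT, as far as the fit without series terms measures it.

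The direction of the Tle1 changes was shared by the isolation batches for the 3 constructs with calls. In isolation batch 1 alone the changes against MIR were 0.32 with PAX5-WT, 0.38 with PAX5-G183S and 0.22 with PAX5-G183V, and in isolation batch 2 they were 0.37, 0.43 and 0.33. None of these 6 smaller fits passed the threshold, with adjusted p from 0.0783 to 0.541. PAX5-P80R gave 0.09 and -0.20 and PAX5-Δ2-6 gave -0.02 and -0.09. For both octapeptide variants the interval of the difference from wild type included 0. PAX5-G183S differed from PAX5-WT by 0.07 ± 0.08 (95% confidence interval -0.09 to 0.24; adjusted p = 0.995), and PAX5-G183V by -0.05 ± 0.08 (-0.21 to 0.11; adjusted p = 0.892).

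**Figure D2:**
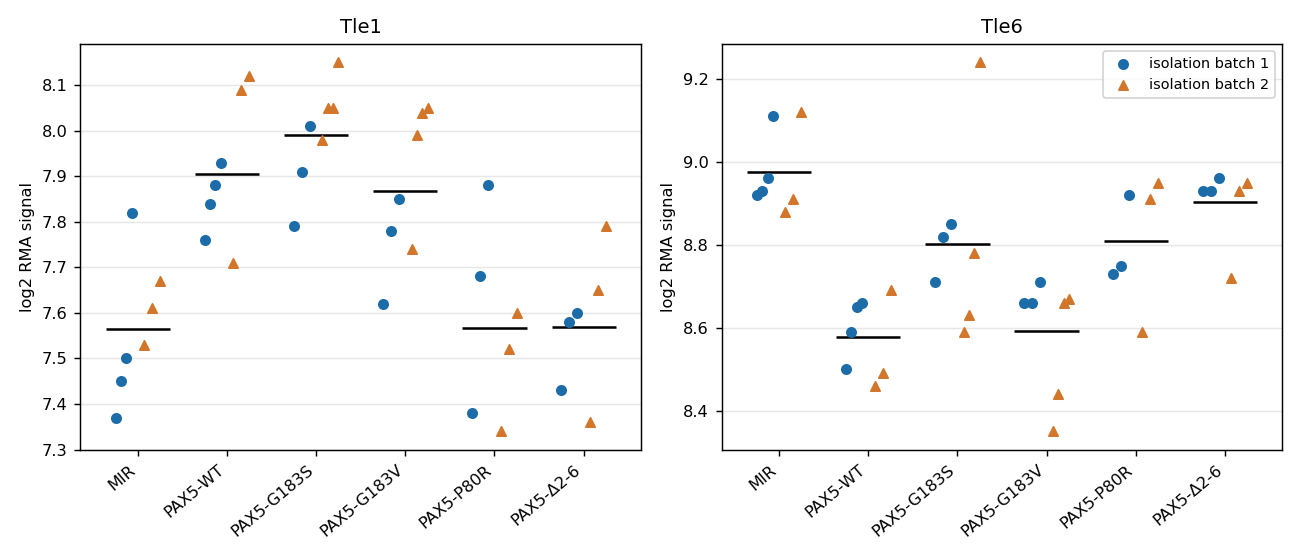
Log2 RMA signal of Tle1 (left) and Tle6 (right) on every array, by construct (x axis), with circles for isolation batch 1, triangles for isolation batch 2 and a bar for the group mean. Tle1 means are 7.90, 7.99 and 7.87 in PAX5-WT, PAX5-G183S and PAX5-G183V against 7.56 in MIR and 7.57 in PAX5-P80R and PAX5-Δ2-6, and every PAX5-WT and PAX5-G183V array of Tle6 lies below every MIR array.

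Direct comparisons placed Tle1 lower with PAX5-P80R and PAX5-Δ2-6 than with wild-type PAX5. PAX5-G183V exceeded PAX5-Δ2-6, a comparison within transduction series, by 0.34 ± 0.09 (n = 7 and 6; adjusted p = 0.0213), or 1.27-fold, with 0.24 and 0.42 in isolation batches 1 and 2. Tle1 was the only member probe set called there, 1 of 13 against 3.08% of all probe sets. The call was lost without PAX5-Δ2-6 replicate 4 (0.29, adjusted p = 0.0763), PAX5-G183V replicate 6 (0.32, adjusted p = 0.0636) or PAX5-G183V replicate 7 (0.32, adjusted p = 0.0664). It was also lost with 8 of 15 alternative settings, among them a fit with no plate and isolation batch terms (0.30, adjusted p = 0.0524), only the 2 groups compared (0.37, adjusted p = 0.105) and quantile normalization applied again (0.31, adjusted p = 0.0721). Of the comparisons added after these values were seen, PAX5-G183V exceeded PAX5-P80R by 0.35 ± 0.09 (adjusted p = 0.0240; 0.13 and 0.53 in isolation batches 1 and 2), also within series. Across series, PAX5-P80R and PAX5-Δ2-6 were each below PAX5-WT by a difference of -0.39 ± 0.09 (adjusted p = 0.00534 and 0.00488). In isolation batches 1 and 2 these differences were -0.22 and -0.57 for PAX5-P80R and -0.34 and -0.46 for PAX5-Δ2-6. PAX5-G183S exceeded PAX5-P80R and PAX5-Δ2-6 by 0.47 ± 0.09 each (adjusted p = 0.000885 and 0.000724). Called member probe sets in these added comparisons numbered 1 of 13 for PAX5-P80R against PAX5-WT (4.09% over all probe sets) and for PAX5-G183V against PAX5-P80R (2.72%). They numbered 2 of 13 for PAX5-Δ2-6 against PAX5-WT (4.27%), PAX5-G183S against PAX5-Δ2-6 (4.36%) and PAX5-G183S against PAX5-P80R (4.47%). Tle1 was among them in all 5, but these were chosen after its values were seen and share arrays. They are therefore not separate support for the Tle1 pattern. In isolation batch 1 alone the limma adjusted p of these Tle1 differences ran from 0.214 to 0.791, and in isolation batch 2 from 0.00452 to 0.0745.

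Tle6, a short and divergent Groucho relative best known for its role in the early embryo, was lower with wild-type PAX5 and with PAX5-G183V. MIR arrays ran from 8.88 to 9.12 with a median of 8.93. PAX5-WT arrays ran from 8.46 to 8.69 (median 8.59) and PAX5-G183V arrays from 8.35 to 8.71 (median 8.66). Neither group overlapped MIR. In PAX5-G183S 6 of 7 arrays lay below every MIR array, and the group ran from 8.59 to 9.24 with a median of 8.78. PAX5-P80R ran from 8.59 to 8.95 (median 8.83) and PAX5-Δ2-6 from 8.72 to 8.96 (median 8.93), both overlapping MIR.

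Tle6 fell by 0.40 on the log2 scale with PAX5-WT (SE 0.07, n = 7 and 7; limma adjusted p = 0.000232), or 1.32-fold, and by 0.38 with PAX5-G183V (SE 0.07; adjusted p = 0.000506), or 1.30-fold. Both calls held with each of the 40 arrays left out in turn. Of 15 alternative settings, 3 lost the PAX5-WT call and 4 lost the PAX5-G183V call. Within isolation batches 1 and 2 the changes were -0.38 and -0.42 for PAX5-WT (limma adjusted p = 0.00153 and 0.282). For PAX5-G183V they were -0.29 and -0.47 (adjusted p = 0.0517 and 0.0499). With 4 transduction series as terms the PAX5-G183V change was -0.21 ± 0.16 (adjusted p = 0.902), and with the series as a random block it was -0.37 ± 0.08 (adjusted p = 0.00303). The differences from MIR were -0.17 ± 0.07 with PAX5-G183S (adjusted p = 0.239), -0.22 ± 0.08 with PAX5-P80R (0.147) and -0.13 ± 0.08 with PAX5-Δ2-6 (0.779).

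The PAX5-G183S result for Tle6 rested on 1 array. Replicate 7 of this group read 9.24, above every MIR array, while the next highest array read 8.85, and over all probe sets it lay farther from its group's fitted values than any other array (root mean square residual 0.201, next 0.179). Without it Tle6 fell by 0.23 with PAX5-G183S (SE 0.06; adjusted p = 0.0226). The difference between PAX5-G183S and PAX5-WT was 0.23 ± 0.07 with the array (95% confidence interval 0.09 to 0.38; unadjusted p = 0.00232, limma adjusted p = 0.666) and 0.16 ± 0.06 without it (adjusted p = 0.868). PAX5-G183V was below PAX5-G183S by a difference of -0.21 ± 0.07 (adjusted p = 0.526), or -0.14 ± 0.06 without the array (adjusted p = 0.822). Neither difference between these groups passed the threshold. Against PAX5-Δ2-6 the PAX5-G183V arrays lay lower without overlap (1 of 13 member probe sets, 1.99% of all), by -0.25 ± 0.08 (adjusted p = 0.0779; 0.0124 without PAX5-G183S replicate 7). In the added comparison, which runs across transduction series, PAX5-Δ2-6 exceeded PAX5-WT by 0.27 ± 0.08 (limma adjusted p = 0.0393). Isolation batches 1 and 2 alone gave 0.31 and 0.21 (adjusted p = 0.0297 and 0.633).

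**Figure D3:**
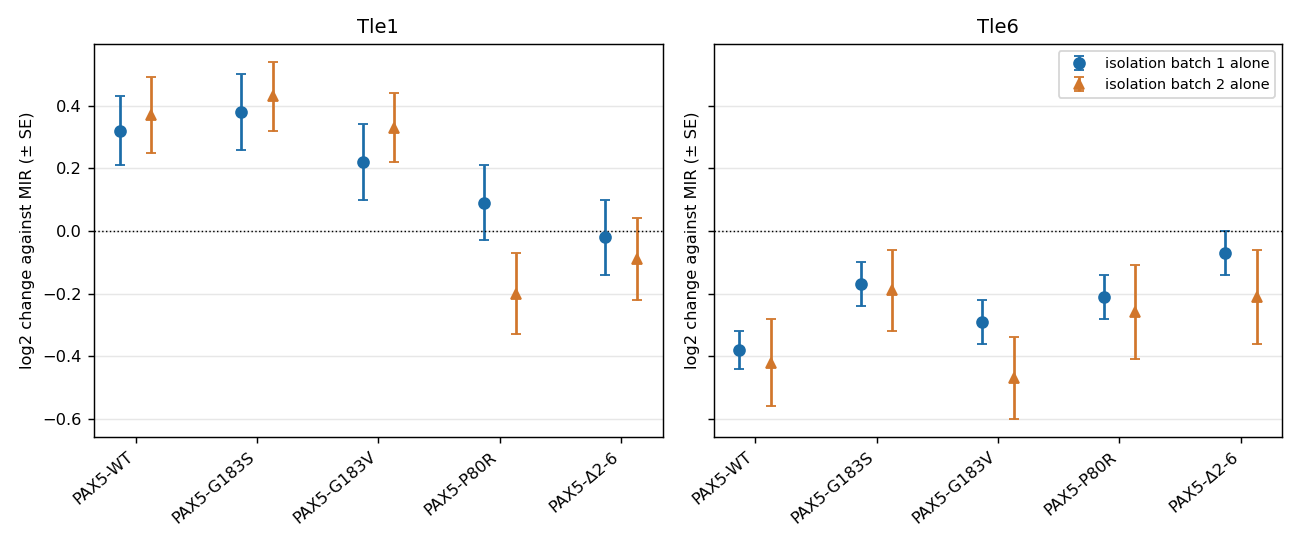
Log2 change against MIR of Tle1 (left) and Tle6 (right) for each construct (x axis), fitted in isolation batch 1 alone (circles) and isolation batch 2 alone (triangles), with bars for the standard error. Tle1 lies above 0 in both batches for PAX5-WT, PAX5-G183S and PAX5-G183V, and Tle6 lies below 0 in both batches for all constructs.

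Tle6 and Tle2 lie next to each other on chromosome 10 with overlapping RefSeq spans on opposite strands. The Tle2 probe set was dim, with a median of 3.82 over the 40 arrays and a range from 3.46 to 4.25, near or below the array medians of 4.21 to 4.27. Its changes against MIR were -0.20 ± 0.08 with PAX5-WT (adjusted p = 0.237) and -0.23 ± 0.08 with PAX5-G183V (adjusted p = 0.0953), so no call was made; a fit with replicate number as a block called the second of these. At this signal a change in Tle2, also a full-length Groucho protein, would not have been measured well.

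Tle3, a full-length Groucho protein, was called only with PAX5-G183V against MIR, and that call was not stable. For its brightest probe set MIR arrays ran from 7.99 to 8.29 (median 8.19) and PAX5-G183V arrays from 8.20 to 8.69 (median 8.58), with 5 of 7 above every MIR array. PAX5-WT (8.16 to 8.49), PAX5-G183S (7.96 to 8.56), PAX5-P80R (8.22 to 8.40) and PAX5-Δ2-6 (8.02 to 8.72) all overlapped MIR. Tle3 rose by 0.25 ± 0.08 with PAX5-G183V (limma adjusted p = 0.0427), or 1.19-fold. The change was 0.11 in isolation batch 1 (adjusted p = 0.817) and 0.40 in isolation batch 2 (adjusted p = 0.00573), with an unadjusted p of 0.0328 for the difference between batches (adjusted p = 0.450). With 4 transduction series as terms it was 0.13 ± 0.17 (adjusted p = 0.954), and the call was lost with 7 of 15 alternative settings in all. Leaving out any 1 of 10 arrays (MIR replicates 1, 4, 5, 6 and 7 and PAX5-G183V replicates 2, 4, 5, 6 and 7) ended the call, with changes from 0.23 to 0.28 over all 40 omissions. The other Tle3 probe sets, 1419654_PM_at and 1449554_PM_at, gave 0.29 ± 0.11 (adjusted p = 0.121) and 0.22 ± 0.09 (adjusted p = 0.183), the same direction without a call. In isolation batches 1 and 2 alone 1419654_PM_at gave 0.14 and 0.45. Probe set 1449554_PM_at gave -0.02 and 0.49 (limma adjusted p = 0.976 and 0.0204). Its difference between batches had an unadjusted p of 0.00305 (adjusted p = 0.175). PAX5-Δ2-6 differed from MIR by 0.21 ± 0.09 on the brightest probe set (adjusted p = 0.632), with 0.02 in isolation batch 1 and 0.44 in isolation batch 2. On 1419654_PM_at it differed by 0.18 ± 0.12 (limma adjusted p = 0.795). On 1449554_PM_at it differed by 0.32 ± 0.10 (adjusted p = 0.567), with 0.04 and 0.67 in isolation batches 1 and 2. Within series, PAX5-G183V differed from PAX5-Δ2-6 by 0.05 ± 0.09 on the brightest probe set, 0.11 ± 0.12 on 1419654_PM_at and -0.10 ± 0.10 on 1449554_PM_at, without a call.

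Tle4, the Groucho protein with which the PAX5 interaction was first described, gave probe sets that disagreed. On probe set 1450853_PM_at, the brightest, MIR arrays were tightly grouped from 10.80 to 10.87 (median 10.85). PAX5-WT arrays ran from 10.89 to 11.07 (median 10.95) and PAX5-G183S arrays from 10.91 to 11.27 (median 10.97), both entirely above MIR. The differences were small, 0.13 ± 0.05 for PAX5-WT (adjusted p = 0.133) and 0.16 ± 0.05 for PAX5-G183S (adjusted p = 0.0505), and neither passed the threshold. PAX5-G183V ran from 10.82 to 11.04, PAX5-P80R from 10.78 to 10.97 and PAX5-Δ2-6 from 10.71 to 10.86, all overlapping MIR.

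The array PAX5-G183S replicate 7, at 11.27, again stood apart on this probe set. Without it the PAX5-G183S difference was 0.12 ± 0.04 (adjusted p = 0.145) and the F test gave an adjusted p of 0.0593. The F test call was also lost without MIR replicate 1 or 5, PAX5-WT replicate 4, PAX5-G183S replicate 1 or PAX5-Δ2-6 replicate 5 or 6. The PAX5-G183S difference passed the threshold without PAX5-G183S replicate 2 (0.18, adjusted p = 0.0445) or 3 (0.18, adjusted p = 0.0367), and without PAX5-G183V replicate 4, PAX5-P80R replicate 4 or PAX5-P80R replicate 5 (0.16 each, adjusted p = 0.0443, 0.0494 and 0.0473). In the added comparison, across transduction series, PAX5-G183S exceeded PAX5-Δ2-6 by 0.20 ± 0.05 (limma adjusted p = 0.0189). Isolation batches 1 and 2 alone gave 0.10 and 0.29 (adjusted p = 0.626 and 0.112). This comparison was not refitted without PAX5-G183S replicate 7.

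Probe set 1425650_PM_at of Tle4 pointed the other way. MIR arrays ran from 7.50 to 7.89 (median 7.65), PAX5-WT from 6.72 to 7.74 (7.54), PAX5-G183S from 7.20 to 7.62 (7.38) and PAX5-G183V from 7.28 to 7.68 (7.41). The differences from MIR were -0.27 ± 0.10, -0.28 ± 0.10 and -0.20 ± 0.10 (adjusted p = 0.155, 0.125 and 0.268). PAX5-WT replicate 4, at 6.72, was the lowest of all arrays, while the other PAX5-WT arrays ran from 7.24 to 7.74. The PAX5-WT difference includes this array, and its size without the array is not given here. Without that array the PAX5-G183S difference was -0.27 ± 0.08 (adjusted p = 0.0311). The third probe set, 1430384_PM_at, ran from 5.21 to 6.45 over all arrays and gave 0.26 ± 0.13 for PAX5-G183S against MIR (adjusted p = 0.305). On it PAX5-G183S exceeded PAX5-P80R by 0.50 ± 0.14 in an added comparison (adjusted p = 0.0320). Over the 40 arrays, after removal of batch effects, the correlation of 1425650_PM_at with 1450853_PM_at was -0.49, and that of 1430384_PM_at with 1450853_PM_at was 0.36. No direction for Tle4 as a gene can be given from these probe sets. For comparison, the 3 Tle3 probe sets correlated at 0.46 to 0.53.

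**Figure D4:**
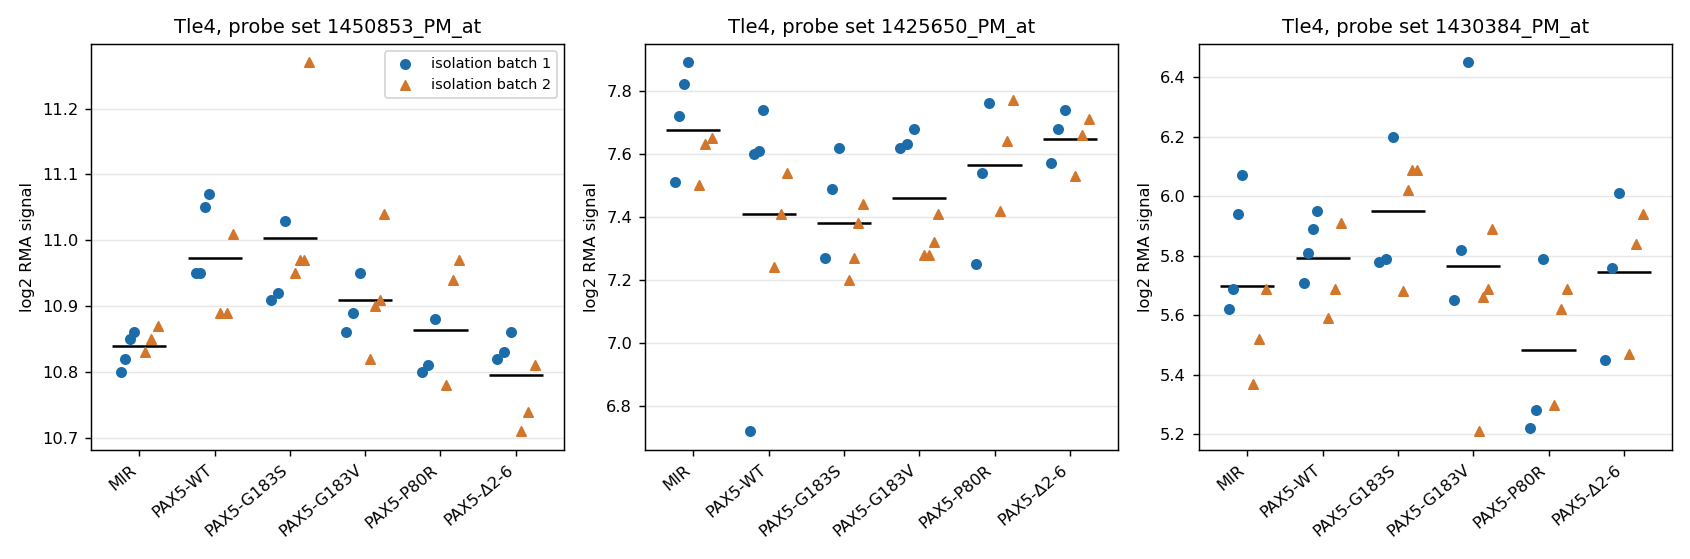
Log2 RMA signal of the 3 Tle4 probe sets on every array, by construct (x axis), with circles for isolation batch 1, triangles for isolation batch 2 and a bar for the group mean. The left panel places PAX5-WT and PAX5-G183S entirely above MIR, while the middle panel places their means, 7.41 and 7.38, below the MIR mean of 7.67. The PAX5-WT mean in the middle panel includes replicate 4 at 6.72.

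Hdac1, the deacetylase that Groucho complexes recruit, was bright and flat across constructs. Its signal ran from 9.06 to 9.64 over the 40 arrays with a median of 9.32, and the group medians from 9.26 to 9.42. In every group the mean was higher in isolation batch 1 than in batch 2. These means were 9.43 and 9.24 in MIR and 9.49 and 9.19 in PAX5-WT. Changes against MIR were 0.01 to 0.04, with standard errors of 0.04 to 0.05, and the F test gave an adjusted p of 0.965. Daxx ran from 7.88 to 8.40 (median 8.12), with changes against MIR from -0.05 to 0.09 (F adjusted p = 0.587). The brighter Paxip1 probe set ran from 7.37 to 7.89 (median 7.60), with changes from -0.12 to 0.03. The other Paxip1 probe set, of a class that may cross-hybridise, ran from 7.32 to 7.78, and the 2 correlated at 0.18. None of these 3 genes was called in any of the 10 comparisons or by the F test.

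Counted over all 13 member probe sets, PAX5-WT against MIR gave 2 calls, Tle1 higher and Tle6 lower, where 3.86% of all probe sets were called. PAX5-G183S gave 1, Tle1 higher (3.73%), and PAX5-G183V gave 3, Tle1 and Tle3 higher and Tle6 lower (5.73%). Arrays did not overlap for 2 member probe sets with PAX5-WT (1.5% of all), 1 with PAX5-G183S (1.37%) and 1 with PAX5-G183V (1.81%). The median size of the changes among the members was 0.12, 0.12 and 0.20 in these 3 comparisons, against 0.07, 0.07 and 0.08 over all probe sets. The sets are unlike, since most member probe sets lay above the array median and some share a gene, while all probe sets include dim ones. PAX5-P80R gave 0 calls (2.56%) with 1 member at an unadjusted p under 0.05, and PAX5-Δ2-6 gave 0 (0%) with 2. Their median sizes were 0.05 each, against 0.07 and 0.06. These 5 comparisons share the MIR arrays.

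The comparisons that bear on the octapeptide itself gave no member call in the limma fit with plate and isolation batch terms. PAX5-G183S against PAX5-WT called 0 of 13 (0.0333% of all probe sets), with 1 at an unadjusted p under 0.05, Tle6. PAX5-G183V against PAX5-WT called 0 (0.0289%), with 2 at that level. Among these the Tle3 probe set 1419654_PM_at differed by 0.40 ± 0.11 (95% confidence interval 0.17 to 0.62; unadjusted p = 0.000924, adjusted p = 0.166), with PAX5-G183V higher, and it was called with 3 transduction series as terms. PAX5-G183V against PAX5-G183S called 0 (0%), with 3 at that level. PAX5-P80R against PAX5-Δ2-6, within series, also called 0 (1.78%), with 1 at that level. In isolation batch 2 alone Tle3 was lower with PAX5-P80R than with PAX5-Δ2-6 by -0.37 (adjusted p = 0.0312), and in isolation batch 1 the difference was 0.10. Of 65 tests of whether a member's change against MIR differed between isolation batches, 0 were called (0.159% over all probe sets), with 5 at an unadjusted p under 0.05.

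Among 58 measured genes of the surrounding machinery, 7 (12.1%) were called in at least 1 comparison with MIR, close to the 11.7% of all genes. Tle5, the short Groucho protein that lacks the WD-repeat domain, ran from 7.25 to 8.06 and was not called (F adjusted p = 0.755). Of 5 NCoR and SMRT complex genes 1 was called, Tbl1xr1, an exchange factor of that complex, which rose by 0.21 ± 0.04 with PAX5-WT (adjusted p = 0.00116) and 0.18 ± 0.04 with PAX5-G183V (0.00501). Of 20 genes of the SIN3, NuRD and CoREST complexes 2 were called. The NuRD subunit Gatad2a rose by 0.41 ± 0.06 with PAX5-P80R (adjusted p = 2.7e-05), 0.20 ± 0.05 with PAX5-G183V (0.0164) and 0.18 ± 0.05 with PAX5-G183S (0.0497). Another NuRD subunit, Mta2, fell by 0.28 with PAX5-WT (SE 0.08; adjusted p = 0.0460). In the PTIP and KMT2 list 1 of 8 was called, the methyltransferase Kmt2d, which rose by 0.25 ± 0.06 with PAX5-G183S (adjusted p = 0.0122).

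Of 8 co-activators and remodellers 2 were called, Smarcc1, a subunit of the SWI/SNF remodeller, at 0.20 ± 0.05 with PAX5-G183V (adjusted p = 0.00743), and Rb1. Rb1, the retinoblastoma protein that binds PAX5, rose by 0.34 ± 0.08 with PAX5-WT (adjusted p = 0.00636) and 0.38 ± 0.08 with PAX5-G183S (0.00212), and fell by 0.40 with PAX5-P80R (SE 0.09; 0.00706; -0.17 and -0.67 in isolation batches 1 and 2). Of 12 factors known to recruit Groucho 1 was called, the Notch target Hes1, at 0.32 ± 0.09 with PAX5-G183V (adjusted p = 0.0199). Hes1 was dim, with a median of 4.24 and signals above the array median on 20 of 40 arrays, so this change, like those of Tle2, was not measured well. None of 4 DAXX partner genes was called. In the 3 comparisons among PAX5-WT, PAX5-G183S and PAX5-G183V, 0 genes of these lists were called.

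Likeness of pattern was measured as Pearson r over the 40 arrays after removal of plate and isolation batch effects, among 17089 genes, as a description of arrays that share groups. The genes most like Tle1 were Ms4a1 (0.79), which encodes the B cell antigen CD20, Trim37 (0.79) and Ddx54 (0.78). Those most like Tle6 were Igtp (0.78), Arid1a (0.77) and Ech1 (0.77), and those most like the brightest Tle4 probe set were Rhobtb1 (0.83), Ccdc88b (0.79) and Tcp11l2 (0.79). Among members Tle1 had an r of 0.48 with the brightest Tle4 probe set and -0.40 with Tle6.

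The 5 measured plasma cell markers were bright, with median log2 signals from 9.01 to 13.21, and lay above the array median on all 40 arrays. The secretory factor Xbp1 ran from 13.03 to 13.40. Xbp1 moved with the Tle1 and Tle6 groups, by -0.14 ± 0.04 with PAX5-WT, -0.16 ± 0.04 with PAX5-G183S and -0.15 ± 0.04 with PAX5-G183V (adjusted p = 0.0292, 0.0111 and 0.0146), and its part in the members' changes was not tested. Jchain, the antibody joining chain, fell by 0.63 with PAX5-G183V (SE 0.15; adjusted p = 0.00626), with changes of -0.10 in isolation batch 1 and -1.08 in isolation batch 2. The mean of the 5 markers ran from 11.07 to 11.40 in MIR, 10.77 to 11.33 in PAX5-WT and 10.75 to 11.43 in PAX5-G183S. It ran from 10.96 to 11.10 in PAX5-G183V, 11.03 to 11.13 in PAX5-P80R and 11.04 to 11.37 in PAX5-Δ2-6. Mean log2 signals of the T cell, myeloid, fibroblast and erythroid lists lay between 4.51 and 4.80, 3.70 and 4.04, 3.57 and 3.82, and 3.99 and 4.38 on the arrays. Within these lists the T cell marker Cd3g was bright on every array (7.93 to 8.74). The myeloid Csf1r (4.94 to 5.69) and the erythroid Klf1 (4.35 to 5.16) were dimmer but also above the array median on all 40 arrays. The T cell marker Cd4 was above it on 37. Lying above the array median therefore does not by itself set the plasma cell list apart. No pair of arrays was identical, and the highest correlation between arrays was 0.9969.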

How the data were processed

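Values were the log2 signals that the authors deposited for 40 arrays, which the submitters' processing notes say were made with RMA, giving no version. Probe sets were named through the platform annotation given: of 45037 tested (104 controls left out), 28898 name 1 gene, 551 several and 15588 none. R 4.3.3 with limma 3.58.1 (statmod 1.5.0 for random blocks) fitted all arrays with terms for 6 groups, plate and isolation batch. P-values were adjusted by Benjamini-Hochberg over all probe sets in each of 10 comparisons, and a call is an adjusted p under 0.05. RMA signals compress fold changes, and the number of arrays limits precision.

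Members and lists were chosen with earlier results of these data known. The named genes are all members, up to 4 called genes per related list with the largest change, and the 3 genes most like each member called by the F test. Tle5, Xbp1, Jchain, Cd3g, Csf1r, Klf1, Cd4 and 5 comparisons were added after their values were seen. The probe set with the highest mean represents a gene. The procedure was tested on simulated data. Alternatives were other batch terms, series terms, single batches, a replicate block, normalization, filters and omitted arrays. The 5 added comparisons were fitted only with the reported terms and in each isolation batch alone.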

Additional observations from a re-analysis of the deposited data

Results flagged for a closer look

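Arrays were examined by group on the brightest probe set of each measured member, by the gap to the nearest array as a share of the group's range. Single arrays stood apart from the rest of their group in 4 of these 48 sets of group values. The other member probe sets were not examined in this way. Chance alone flags about 1 in 20 such groups. PAX5-G183S replicate 7 did so for Tle4 (11.27, nearest 11.03, share 0.65) and for Tle6 (9.24, nearest 8.85, share 0.59); results without it are given with those genes. PAX5-Δ2-6 replicate 4 was low for Tle6 (8.72, nearest 8.93, share 0.87). PAX5-G183V replicate 5 was high for Daxx (8.40, nearest 8.20, share 0.71). The cause was not tested.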

How the results depend on the processing

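Counts are member probe sets called of 13. Calls over all probe sets under these settings are given only where stated, so nothing particular to the members is read from the counts. Isolation batch 1 alone gave 1 for PAX5-WT against MIR, 0 for PAX5-G183S and 0 for PAX5-G183V against MIR, 0 for PAX5-G183V against PAX5-Δ2-6 and 1 in the F test. Isolation batch 2 alone gave 0 for PAX5-WT and 0 for PAX5-G183S against MIR, 0 for PAX5-G183V against PAX5-Δ2-6 and 1 for PAX5-P80R against PAX5-Δ2-6. Its 3 calls for PAX5-G183V against MIR were Tle6 and the Tle3 probe sets 1419655_PM_at (the brightest) and 1449554_PM_at, without Tle1. Plate 2 alone, like a 1.5-fold minimum, gave 0 for PAX5-WT, PAX5-G183S and PAX5-G183V against MIR and 0 for PAX5-G183V against PAX5-Δ2-6; single batches and plates hold fewer arrays. PAX5-G183V against PAX5-Δ2-6 gave 0 with only its 2 groups or quantile normalization applied again, and 2 with probe sets above the median or trend and robust settings. PAX5-G183S against MIR gave 2 with these last settings, with 1 probe set per gene and with 3 or 4 transduction series. The 3 series gave 1 for PAX5-G183V against PAX5-WT, a Tle3 probe set. For PAX5-G183V against MIR the 4 series gave 0, and the 4 series as a random block gave 1. Over all 45037 probe sets these settings called 132 and 1342 in that comparison, against 2582 in the reported fit. Leaving out each array gave 2 to 2 for PAX5-WT, 1 to 2 for PAX5-G183S and 1 to 3 for PAX5-G183V against MIR, 0 to 2 for PAX5-G183V against PAX5-Δ2-6 and 2 to 4 in the F test. No direction of a called change reversed in any alternative run. Causes of the other moves were not tested.

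Replicate numbers did not pair the arrays: same-numbered arrays had a mean residual correlation of -0.0386, others -0.0235, and 5 of 40 arrays correlated best with their own number. With a replicate block PAX5-G183S against MIR gave 2 calls, and Tle1 with PAX5-G183V changed by 0.26 (adjusted p = 0.0589), Tle3 with PAX5-G183V by 0.26 (0.0628) and Tle1 in PAX5-G183V against PAX5-Δ2-6 by 0.42 (0.0564), so these calls were lost, while Tle2 and a Tle4 probe set were called lower with PAX5-G183V against MIR and Tle6 lower in PAX5-G183V against PAX5-Δ2-6. Without plate and isolation batch terms the 1 call for PAX5-G183V against PAX5-Δ2-6 was Tle6, not Tle1. With 4 series terms the median standard error of PAX5-G183V against MIR was 0.19, against 0.08 in the reported fit.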
